A study of Mus musculus with 10 samples.

Results

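The genes described here are the ligands and receptors of 2 chemokine axes that guide monocytes, the CCR2 axis (Ccl2, Ccl7, Ccl8, Ccl12 and the receptor Ccr2) and the CX3CR1 axis (Cx3cl1 and the receptor Cx3cr1). They were taken by name from the array's annotation, 1 probe for each gene. All 7 were found among 19938 genes with a probe of their own. They comprise 5 ligands and 2 receptors. They were measured with whole-transcript arrays in 10 subcutaneous MC38 tumors, grown from a mouse colon carcinoma line in C57BL/6 mice. In 5 mice the tumor, about 40 mm2 in size, was injected with CpG1826 (50 µg, in 50 µL PBS) and taken 6 h later, and in 5 control mice it received PBS. CpG1826 is a DNA oligonucleotide with unmethylated CpG motifs that activates the mouse sensor TLR9. The labels word the treatment alike for all tumors, so the same time was assumed for PBS. Neither age nor sex is given in the sources used here.

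CCR2 is the receptor that classical monocytes need to leave the bone marrow and enter inflamed tissue, and CCL2, CCL7 and CCL12 are its ligands in the mouse. Mouse CCL8 has been studied mostly as a ligand of another receptor, CCR8. CX3CL1, or fractalkine, is made as a membrane-bound chemokine on a mucin stalk and is shed by the proteases ADAM10 and ADAM17. Its receptor CX3CR1 is abundant on patrolling monocytes, microglia and many resident macrophages. In tumors, CCR2-dependent monocytes are a main source of macrophages.

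The genes of the CCR2 ligands lie in a row on chromosome 11, in the order Ccl2, Ccl7, Ccl11, Ccl12, Ccl8 and Ccl1 in RefSeq (GRCm38.p6). Cx3cl1 lies between Ccl22 and Ccl17 on chromosome 8. Both receptor genes are on chromosome 9, Ccr2 beside Ccr3, and Cx3cr1 beside Ccr8. RefSeq promoter windows were at hand for 5 of the 7 genes, all but Ccl2 and Ccl7. The 100 bases before the start are printed for 4 of them, with the letters of the TATA box (TATAAA) in capitals. The longest exact run of bases shared by the adjacent Ccl12 and Ccl8 was 8, within the 7 to 9 of all pairs of windows. A run broken by a mismatch was not counted, so likeness beyond exact runs was not measured. The Ccr2 window lies inside the annotated gene and is not printed.
Ccl12, chr11:82101745-82101844, plus strand: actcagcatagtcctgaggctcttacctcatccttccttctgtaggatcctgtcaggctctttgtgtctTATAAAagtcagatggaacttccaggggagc
Ccl8, chr11:82115085-82115184, plus strand: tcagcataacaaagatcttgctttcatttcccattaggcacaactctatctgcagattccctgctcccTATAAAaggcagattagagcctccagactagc
Cx3cl1, chr8:94772080-94772179, plus strand: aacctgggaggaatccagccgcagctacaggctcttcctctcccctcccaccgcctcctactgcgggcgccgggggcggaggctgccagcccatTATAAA
Cx3cr1, chr9:120068297-120068396, minus strand: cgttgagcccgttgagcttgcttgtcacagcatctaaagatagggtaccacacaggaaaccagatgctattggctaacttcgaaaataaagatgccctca

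Over 250 bases before the start, on both strands, 4 motifs were searched: the TATA box, an NF-κB site (GGG, any 2 bases, TTTCC), an AP-1 site (TGANTCA) and an interferon-stimulated response element (GAAA, any 2 bases, GAAA). The TATA box began 31 bases before the start of Ccl12 and 32 bases before that of Ccl8, and 12.4% of all 32851 windows hold it. In Cx3cl1 the same letters began 6 bases before the start, nearer than in Ccl12 and Ccl8. Each is a match of letters, and its use as a TATA box was not tested. The NF-κB, AP-1 and interferon motifs, held by 1.41%, 6.75% and 2.98% of all windows, were not in any of the 5 windows. The share of G and C was 64.8% in the Cx3cl1 window and 37.2% in that of Ccr2.

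After CpG1826, the ligands Ccl2 and Ccl7 were higher and both receptors were lower. Ccl2 rose 1.71-fold (log2 fold change 0.77, 95% confidence interval 0.59 to 0.96) and Ccl7 1.58-fold (0.66, 0.48 to 0.83). Cx3cr1 was 2.32-fold lower (-1.21, -1.48 to -0.94) and Ccr2 1.53-fold lower (-0.61, -0.96 to -0.26). Ccl8, Ccl12 and Cx3cl1 did not pass the test. Of the 7 genes, 2 were called higher and 2 lower at an adjusted p under 0.05 (limma, Benjamini-Hochberg over all genes), against 4.66% of all genes called in either direction, 3.56% higher and 1.1% lower. The 7 log2 fold changes had a median of 0.28, and those of all genes one of -0.02.

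**Figure D1:**
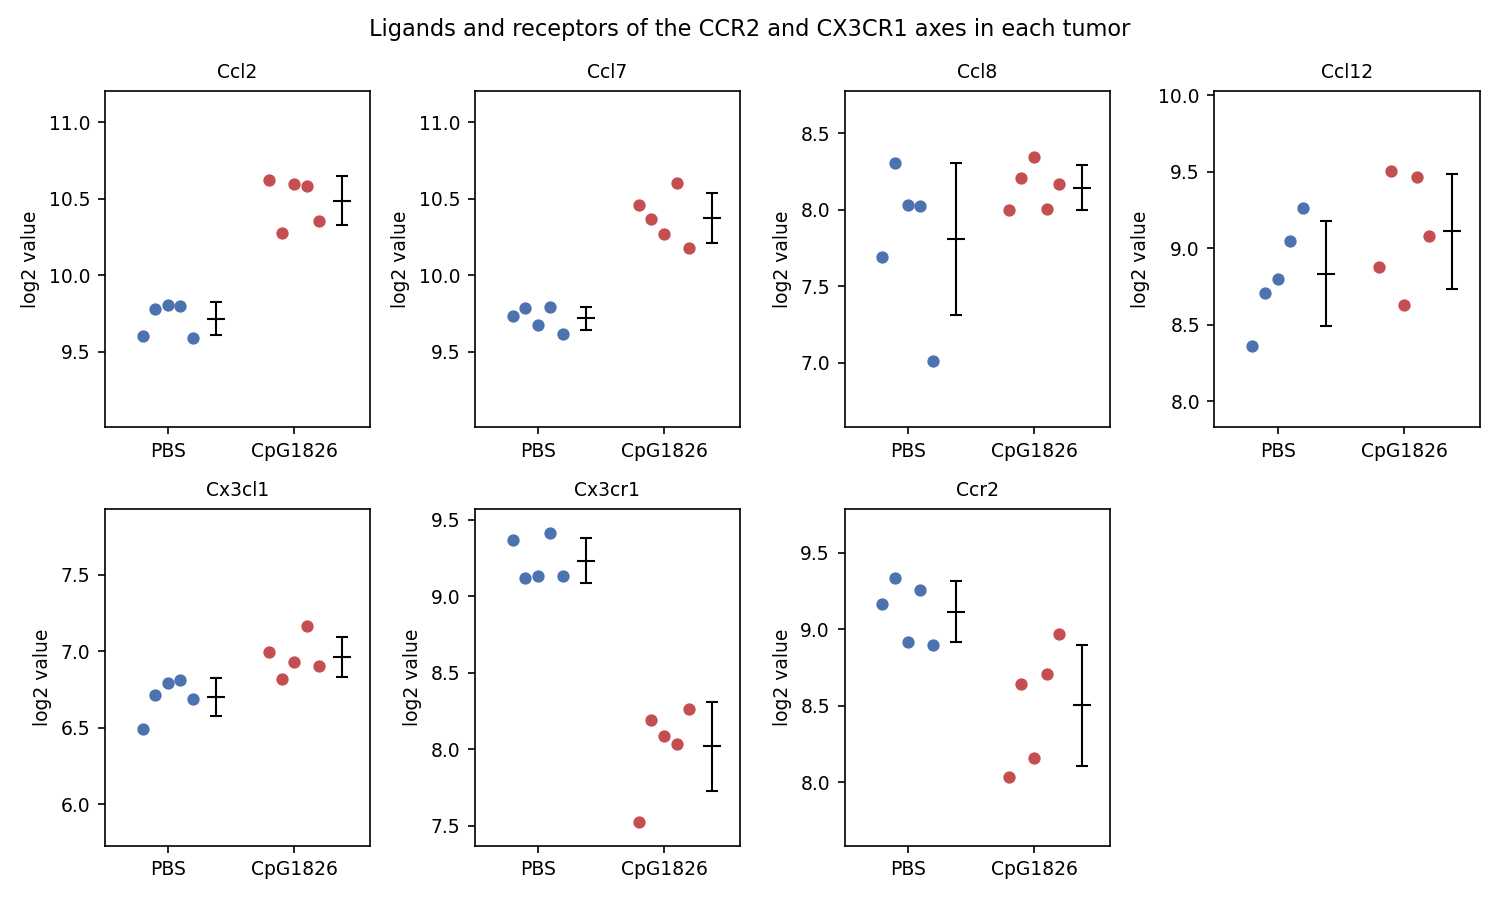
The log2 value of each ligand and receptor (y axis, the same span of log2 units in each panel) in 5 PBS and 5 CpG1826 tumors (points), with the mean and SD of each group (bar). The groups are apart for Ccl2, Ccl7 and Cx3cr1 and touch for Cx3cl1, where the highest PBS value is 6.81 and the lowest CpG1826 value 6.82.

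Ccl2 encodes MCP-1, the main attractant of CCR2-bearing monocytes. Its log2 values in the PBS tumors were 9.61, 9.78, 9.81, 9.80 and 9.59 (mice 26, 29, 482, 592 and 661). In the CpG1826 tumors they were 10.63, 10.28, 10.59, 10.58 and 10.36 (mice 50, 58, 183, 189 and 595). All 5 CpG1826 tumors lay above every PBS tumor, with mouse 50 the highest. The mean was 9.72 ± 0.11 with PBS and 10.49 ± 0.16 with CpG1826 (SD over 5 mice each). The difference of 0.77 log2 units had a SE of 0.09 (limma adjusted p = 0.000111).

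Ccl7 encodes MCP-3, which acts on CCR2 and on other receptors such as CCR1. In the same order of mice, its log2 values were 9.73, 9.78, 9.67, 9.79 and 9.62 in PBS tumors and 10.46, 10.37, 10.27, 10.60 and 10.18 in CpG1826 tumors. The groups did not overlap, and the highest tumor was mouse 189 in place of mouse 50. The log2 fold change was 0.66 ± 0.08 (SE, n = 5 per group, limma adjusted p = 0.000285). Of the 7 genes, 4 had groups that did not overlap, 3 with CpG1826 above (4.35% of all genes) and 1 with CpG1826 below (2.42%), against 6.78% of all genes in either direction.

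Ccl12 encodes MCP-5, a mouse CCR2 ligand. Its log2 values were 8.36, 8.71, 8.80, 9.05 and 9.26 in PBS tumors and 8.88, 9.50, 8.63, 9.46 and 9.08 in CpG1826 tumors. The values of both groups were spread over most of 1 log2 unit, and 2 of the 5 CpG1826 tumors lay above all PBS tumors. The log2 fold change of 0.28 ± 0.19 did not pass (95% confidence interval -0.12 to 0.68, n = 5 per group, limma adjusted p = 0.539). A rise as large as that of Ccl7 lies just inside this interval, so it was not shown that Ccl12 differed from Ccl7 in its response. Leaving out PBS mouse 26 gave 0.16 and leaving out CpG1826 mouse 58 gave 0.18, and Ccl12 did not pass in any of the 10 fits without 1 mouse.

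Ccl8 encodes MCP-2. Its log2 values were 7.69, 8.30, 8.03, 8.02 and 7.01 in PBS tumors and 7.997, 8.21, 8.35, 8.005 and 8.17 in CpG1826 tumors. PBS mouse 661 was the lowest, and 1 CpG1826 tumor, mouse 183, lay above all PBS tumors. The SD was 0.50 in PBS and 0.15 in CpG1826 tumors. The log2 fold change was 0.33 ± 0.19 (SE, n = 5 per group, limma adjusted p = 0.445). Without PBS mouse 661 it was 0.13 (limma adjusted p = 0.697, the highest of the 10 fits that leave out 1 mouse, of which the lowest was 0.263). In the same mouse, the mean of the T cell markers was 6.75 against 7.31 to 7.46 in the other PBS tumors, and that of the macrophage markers 9.35 against 9.53 to 9.59. Their part in the Ccl8 value was not tested.

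In the order of the genes on chromosome 11, the log2 fold changes were 0.77 for Ccl2, 0.66 for Ccl7, 0.43 for Ccl11, 0.28 for Ccl12, 0.33 for Ccl8 and -0.20 for Ccl1. Ccl11, an eosinophil attractant, and Ccl1, a ligand of CCR8, are not ligands of the monocyte axes. The Ccl11 value missed the threshold (limma adjusted p = 0.378). With CpG1826 mouse 50 left out it met it, and leaving out 1 mouse at a time gave limma adjusted p from 0.0331 to 0.592. So only the first pair of neighbours in the row, Ccl2 and Ccl7, passed with all 10 tumors, and differences between the neighbours were not tested.

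Cx3cl1 encodes fractalkine. Its log2 values were 6.50, 6.71, 6.79, 6.81 and 6.69 in PBS tumors and 6.99, 6.82, 6.93, 7.16 and 6.90 in CpG1826 tumors. All 5 CpG1826 tumors lay above every PBS tumor, though mouse 58 by very little. The mean was 6.70 ± 0.13 with PBS and 6.96 ± 0.13 with CpG1826 (SD over 5 mice each). The difference of 0.26 ± 0.08 log2 units (SE, 95% confidence interval 0.09 to 0.44, 1.20-fold) missed the threshold over all genes (limma adjusted p = 0.106). The mean of Cx3cl1 over all tumors lay just below the median of all genes, 6.87. Its neighbours on chromosome 8 had log2 fold changes of 0.26 (Ccl22) and -0.05 (Ccl17), and neither passed.

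Cx3cr1, the receptor of fractalkine, changed most of the 7. Its log2 values were 9.37, 9.12, 9.13, 9.41 and 9.13 in PBS tumors and 7.53, 8.19, 8.08, 8.04 and 8.26 in CpG1826 tumors. Every CpG1826 tumor lay below every PBS tumor, and mouse 50 was the lowest. The log2 fold change was -1.21 ± 0.12 (SE, n = 5 per group, limma adjusted p = 6.53e-05). Over all genes, 2 had a fall at least as large, Cx3cr1 and Lair1, an inhibitory collagen receptor of leukocytes. In whole tumors, fewer cells of a type and less RNA per cell cannot be told apart.

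Ccr2 was also lower, but the call was weak. Its log2 values were 9.16, 9.34, 8.92, 9.25 and 8.90 in PBS tumors and 8.03, 8.65, 8.16, 8.71 and 8.97 in CpG1826 tumors. The groups overlapped: 4 CpG1826 tumors lay below all PBS tumors, and mouse 595 lay above the PBS mice 482 and 661. The mean was 9.11 ± 0.20 with PBS and 8.50 ± 0.39 with CpG1826 (SD over 5 mice each), and the log2 fold change of -0.61 ± 0.16 (SE) passed narrowly (limma adjusted p = 0.0495). The call was lost when any of the 5 PBS mice or the CpG1826 mice 50, 58, 183 or 189 was left out (limma adjusted p up to 0.127), and kept without mouse 595 (limma adjusted p = 0.0158). In the 10 fits the log2 fold change stayed between -0.73 and -0.49. Mouse 50 had the lowest value of both receptors and mouse 595 the highest value of both among CpG1826 tumors.

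**Figure D2:**
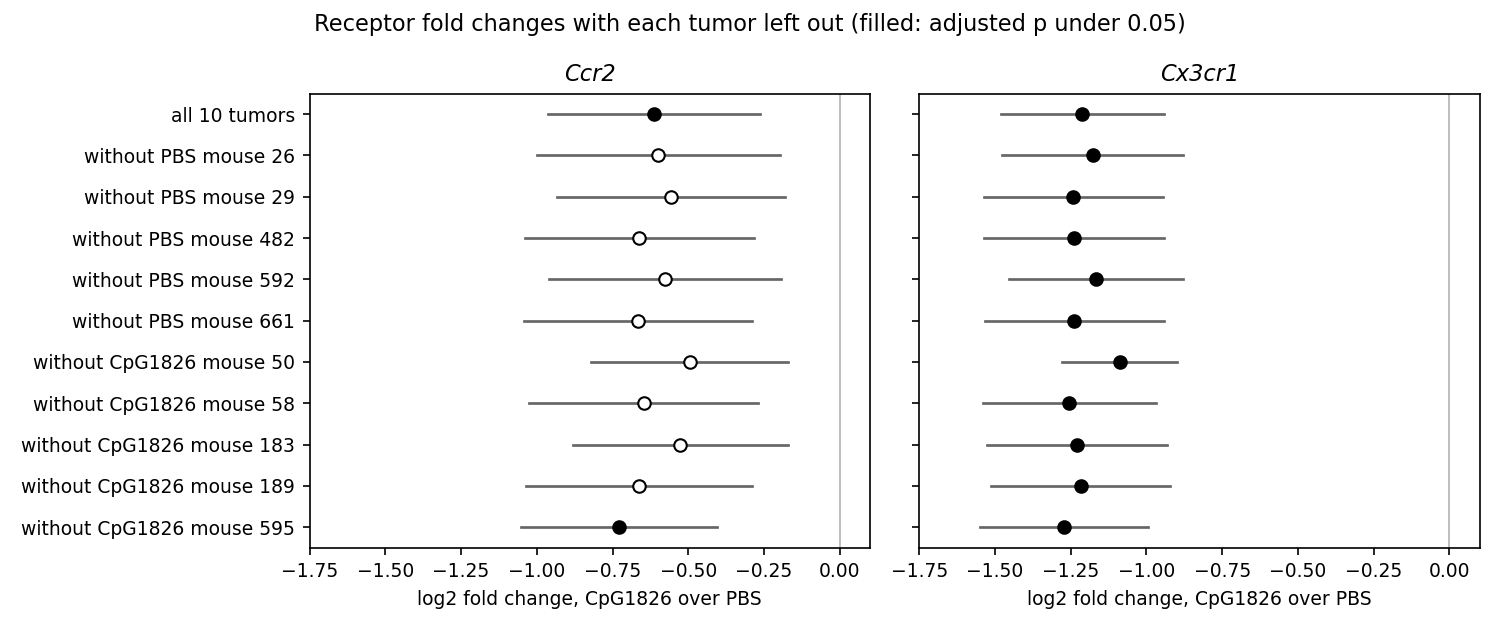
Log2 fold change (x axis, CpG1826 over PBS, with its 95% confidence interval) of Ccr2 (left) and Cx3cr1 (right) with all 10 tumors and with each tumor left out (rows). Filled points pass an adjusted p under 0.05: all 11 fits for Cx3cr1, from -1.27 to -1.09, and for Ccr2 the fit of all tumors and that without CpG1826 mouse 595.

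Ligands and receptors were next set against each other within each tumor, which asks whether 2 genes changed unequally. For each of 6 pairs the difference of the log2 values was compared between groups with an exact permutation test over the 10 arrays (two-sided, adjusted over the 6 pairs). The smallest p that 5 against 5 tumors can give is 0.00794. Ccl2 minus Ccr2 was 1.38 ± 0.25 higher in CpG1826 tumors (SE, n = 5 per group, exact p = 0.00794, adjusted p = 0.0119), a 2.61-fold shift of the ligand against the receptor. It lay between 0.44 and 0.89 in PBS and between 1.39 and 2.59 in CpG1826 tumors, with no overlap.

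The shift was 1.27 ± 0.21 for Ccl7 against Ccr2 and 1.47 ± 0.19 for Cx3cl1 against Cx3cr1 (SE, n = 5 per group, each with an exact p = 0.00794 and adjusted p = 0.0119). Both had groups that did not overlap. For Cx3cl1 against Cx3cr1 this was fixed beforehand, since each gene alone already separated the groups, in opposite directions. That test thus adds nothing to the values of the separate genes. Of the 1.47 log2 units on the CX3CR1 axis, the receptor's own change made up 1.21 as a fall, and the ligand's 0.26. Ccl8 and Ccl12, which did not pass on their own, also shifted against Ccr2, by 0.94 ± 0.26 (exact p = 0.00794, adjusted p = 0.0119) and 0.89 ± 0.25 (exact p = 0.0159, adjusted p = 0.0159). The log2 fold change of Ccr2 was -0.61, and those of Ccl8 and Ccl12 were 0.33 and 0.28. Most of either shift was thus the fall of Ccr2, and a response of these ligands was not shown. Each CCR2 pair shares its Ccr2 values with the others, so the 4 CCR2 pairs are not independent.

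The receptors differed from each other as well. Cx3cr1 minus Ccr2 was 0.12 ± 0.19 with PBS and -0.48 ± 0.25 with CpG1826 (SD over 5 mice each). Cx3cr1 thus fell by 0.60 ± 0.14 log2 units more than Ccr2 (SE, exact p = 0.0159, adjusted p = 0.0159). The groups overlapped in this measure, since PBS mouse 29 was at -0.22 and CpG1826 mouse 183 at -0.07.

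**Figure D3:**
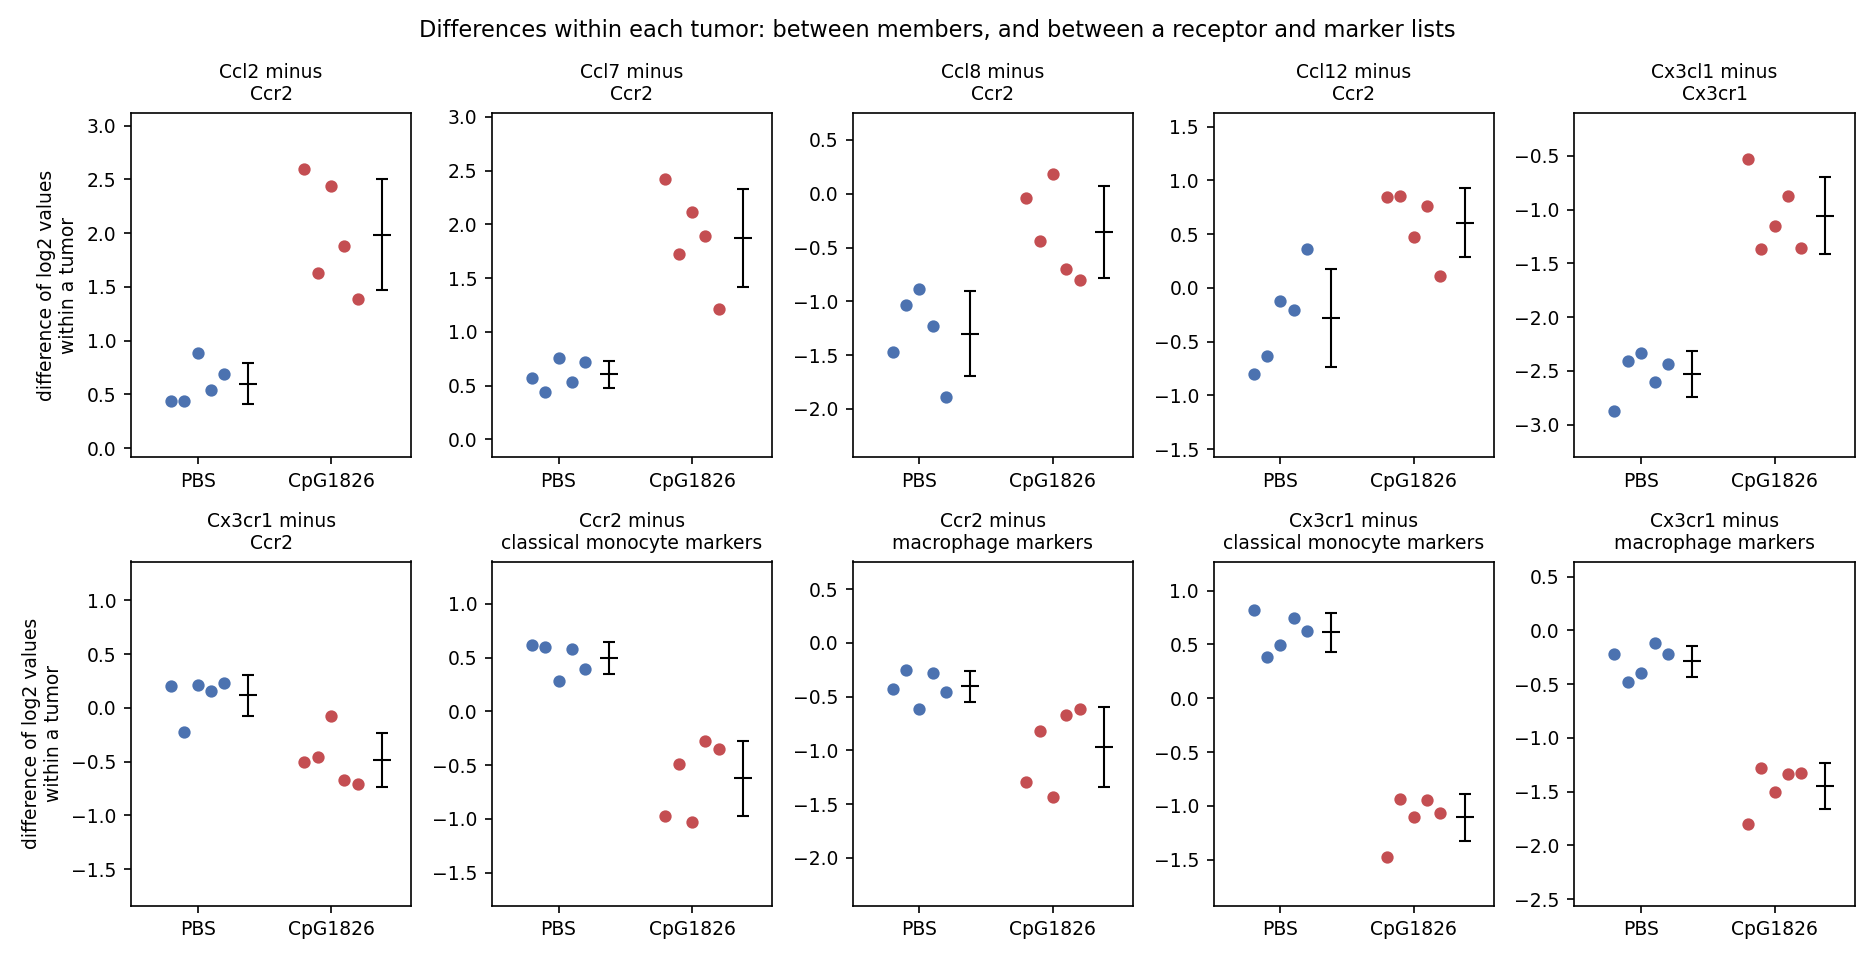
Differences of log2 values within each tumor (y axis, the same span in each panel) for 6 pairs of genes and for each receptor minus the mean of 2 marker lists, in 5 PBS and 5 CpG1826 tumors (points), with mean and SD (bar). The groups are apart in all panels but Ccl12 minus Ccr2 and Cx3cr1 minus Ccr2.

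The macrophage and classical monocyte marker lists did not fall with the receptors. The tumors held macrophage transcripts in both groups. Adgre1, a defining macrophage marker, had log2 means of 9.79 and 9.82 in PBS and CpG1826 tumors, and Cd68 10.71 and 10.69; both were picked after their values were seen. Of 19 measured macrophage markers, 1 rose (Msr1, a scavenger receptor, 0.66) and 2 fell (Stab1, also a scavenger receptor, -0.49, and Csf1r, -0.46), with a median log2 fold change of -0.02. At an unadjusted p under 0.05 (limma), 4 were lower and 1 was higher. The mean of the list lay between 9.35 and 9.59 in PBS and between 9.33 and 9.59 in CpG1826 tumors.

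Of 13 measured classical monocyte markers, 5 rose and 0 fell, with a median of 0.40. Cd14, the co-receptor for lipopolysaccharide, rose by 2.11, Hp, haptoglobin, by 1.14 and Ifitm6 by 0.81 on the log2 scale. The others were Ms4a4c (0.59) and the Fc receptor gene Fcgr1 (0.40). These genes are also made by other activated myeloid cells, and Ly6c2, a defining monocyte marker, was not analysed here. Only 3 were called in the fits that left out PBS mice 29, 482 and 661 or CpG1826 mice 58, 183 and 595, each in turn. F13a1 and Plac8, at 0.64 and 0.50, did not pass (limma adjusted p = 0.0545 and 0.109). F13a1 did so with PBS mouse 26 left out, and leaving out 1 mouse at a time gave it limma adjusted p from 0.00488 to 0.134. The mean of the list was 8.50 to 8.73 in PBS and 8.98 to 9.32 in CpG1826 tumors. Of 13 measured markers of patrolling monocytes, 2 rose and 0 fell, with a median of 0.05. The median became -0.03 when PBS mouse 661 was left out and -0.02 when either CpG1826 mouse 58 or 183 was, and 1 gene was called lower without CpG1826 mouse 58 and after a further quantile normalization. The pair that rose with all tumors was Cebpb (0.93) and Pou2f2 (0.42), both transcription factors. The call of Pou2f2 was lost in the 8 fits that left out any PBS mouse or the CpG1826 mice 58, 183 and 595 (limma adjusted p from 0.0375 to 0.112 in all 10).

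Measured against the macrophage list within each tumor, Cx3cr1 fell by 1.16 ± 0.12 log2 units and Ccr2 fell by 0.56 ± 0.18 (SE, n = 5 per group, exact permutation test, p = 0.00794 and adjusted p = 0.00794 over 4 such tests for each). Against the classical monocyte list, Cx3cr1 fell by 1.72 ± 0.13 and Ccr2 fell by 1.12 ± 0.17 (SE, exact permutation test, the same p). The receptors' own log2 fold changes were -1.21 and -0.61. The rest was the change of the list means, 0.51 for classical monocyte and -0.05 for macrophage markers. The lists were chosen with earlier results of these data known. The groups did not overlap in any of the 4. For Cx3cr1 against the classical monocyte list this was fixed beforehand, since each alone already separated the groups, in opposite directions. A measure chosen after the data were seen took the median of a list's levels in each tumor in place of its mean. By it, Ccr2 fell by 0.96 against the macrophage list. The middle gene of a list can differ between tumors. The macrophage genes had a median log2 fold change of -0.02, so the part beyond the -0.61 of Ccr2 reflects this measure. Both receptors thus changed unequally from the macrophage and classical monocyte lists, and the number of cells that carry them was not measured. They were not set against the patrolling monocyte list or the resident macrophage list described next.

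A list of receptors and other genes used as markers of resident macrophages and microglia was lower in part. Of 14 measured genes, 4 fell and 0 rose, with a median log2 fold change of -0.25. Lair1 fell by 1.29, Cmklr1, the chemerin receptor, by 0.61 and Tgfbr1, a TGF-β receptor, by 0.53 on the log2 scale. The fourth was the dim Gpr34 (-0.28), whose call was lost in 7 of the 10 fits that leave out 1 mouse, and kept when PBS mice 29 and 661 or CpG1826 mouse 595 were left out, each in turn (limma adjusted p from 0.0371 to 0.0895 in all 10).

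**Figure D4:**
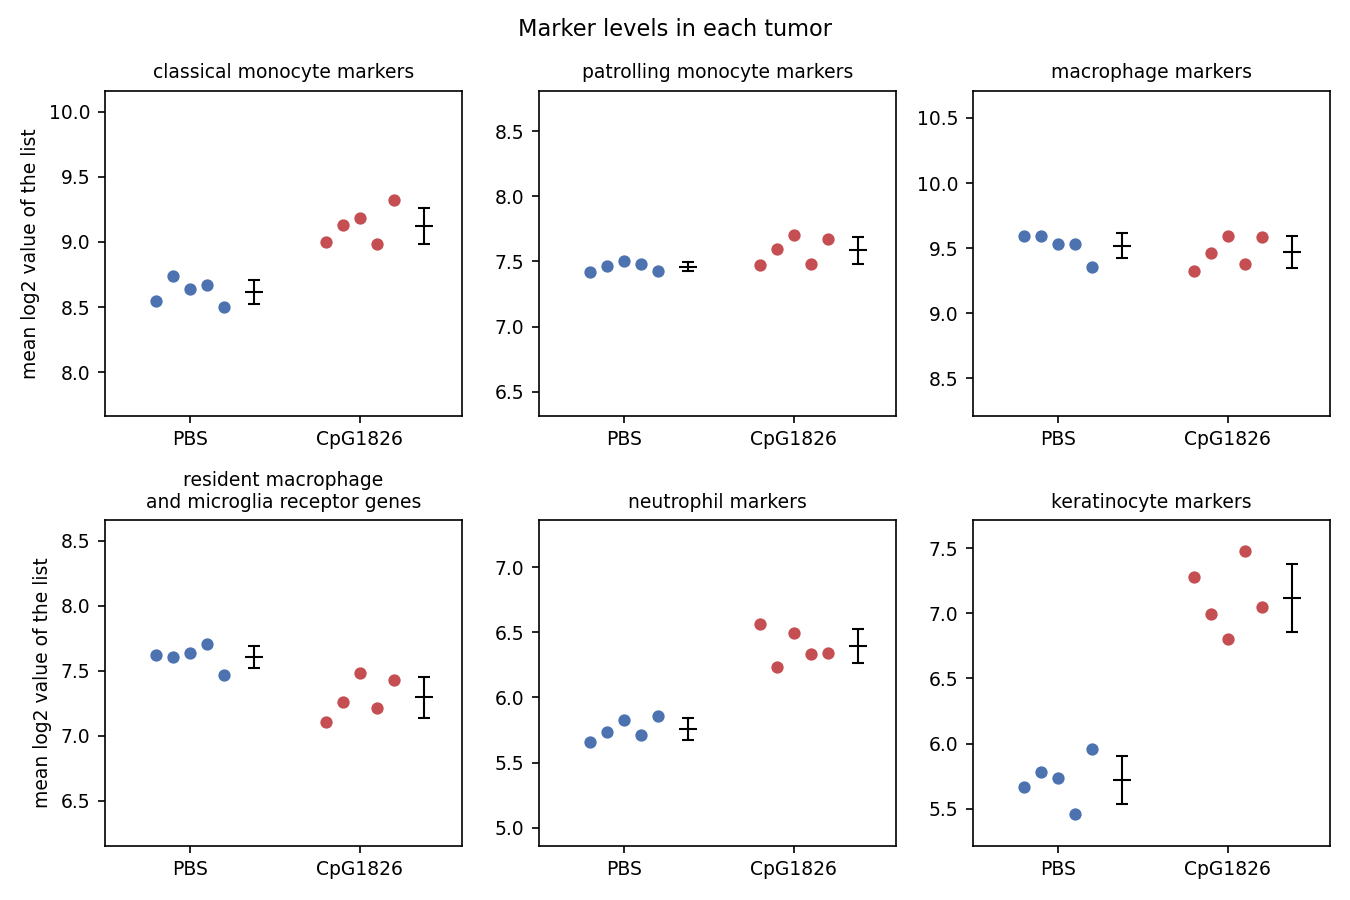
Mean log2 value of 6 marker lists (y axis, the same span in each panel) in 5 PBS and 5 CpG1826 tumors (points), with mean and SD (bar). Macrophage markers overlap, classical monocyte, neutrophil and keratinocyte markers are higher and the resident macrophage and microglia genes mostly lower in CpG1826 tumors.

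Transcripts that mark other cell types were counted in the same way. Of 15 measured neutrophil markers, 8 rose and 0 fell, the mean of the list going from 5.66 to 5.86 in PBS to 6.24 to 6.57 in CpG1826 tumors, S100a8 rising by 2.13 on the log2 scale, while Ly6g, the defining marker, was at 4.70 in both groups. With genes below the median level left out, a filter that removed 11 of these 15 markers, 3 were called higher. Of 18 measured keratinocyte markers, 12 rose and 0 fell, with means of 5.46 to 5.96 in PBS and 6.81 to 7.48 in CpG1826 tumors, among them the keratins Krt1 (3.06) and Krt5 (2.95, log2 fold change). NK cells, which can carry CX3CR1, had 1 marker of 10 higher (Gzmb, granzyme B, 1.15) and 0 lower, with overlapping means of 6.14 to 7.18 and 6.27 to 7.36. The count was 2 without CpG1826 mouse 50. Dendritic cell markers had 1 of 12 higher (Ccr7) and 0 lower (1 lower without CpG1826 mouse 189 or 595). T cell markers (9 measured) had 0 calls in either direction (limma; 2 lower and 0 higher at an unadjusted p under 0.05) and a median log2 fold change of -0.27, which became -0.44 when PBS mouse 661 was left out and -0.16 when either PBS mouse 26 or CpG1826 mouse 50 was. Fibroblast markers (11 measured) had 0 calls in either direction (limma; 2 lower and 0 higher at an unadjusted p under 0.05) and a median of -0.04, which lay between -0.13 and 0.07 in the 10 fits without 1 mouse. Of these, 1 was called higher without CpG1826 mouse 50, and 1 lower without PBS mouse 26 and under 5 other settings: quantile normalization, both filters on level, the trended and robust prior, and array weights. Of 11 endothelial markers, Tek, an angiopoietin receptor gene, was lower (-0.34), a call lost in 8 of the 10 fits, all but those without PBS mouse 29 or 592, and 1 other was higher without CpG1826 mouse 50. The part of neutrophils and skin in the 7 genes' values was not tested. As for the tumor cells, 6 of 8 epithelial markers lay below the median of all genes; Epcam was at 5.19 in PBS tumors. In this list 2 genes rose, Cdh1 (0.63) and Epcam (0.32), and 1 was called in 8 of the 10 fits, the exceptions being those without PBS mouse 26 and without CpG1826 mouse 183. Whether the rises of Cdh1 and Epcam came from tumor cells or from skin was not tested.

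The other genes of the pathway were taken from a list of 24, of which 22 had a probe of their own; 3 rose and 1 fell, with a median log2 fold change of 0.06. Among receptors, Ccr1, which binds CCL7 and CCL3, rose by 0.69 ± 0.11, and Ccr8 did not pass (-0.05). Among sheddases and a protease of fractalkine, Adam10 (-0.14), Adam17 (0.19) and Ctss (-0.03) did not pass. Zfp36, which encodes the decay factor tristetraprolin, rose by 0.95 ± 0.08 and Zc3h12a, the RNase MCPIP1 that is induced by CCL2, by 0.66 ± 0.10 on the log2 scale (SE). Csf1r, the receptor of M-CSF that monocytes and macrophages depend on, fell by 0.46 ± 0.09 (SE, n = 5 per group, limma adjusted p = 0.0119), and its ligand Csf1 was at 0.03.

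Among CC chemokines outside the 2 axes, 5 of 14 rose and 0 fell, with a median of 0.12. Ccl3 (2.64) and Ccl4 (2.12), both inflammatory chemokines, rose more than Ccl2 in log2 fold change, and Ccl5 (0.94), Ccl9 (0.84) and the CCR7 ligand Ccl19 (0.75) also rose; differences from Ccl2 were not tested. Among 15 other measured chemokine receptors, 4 rose, Ccr1 among them, and 1 fell. Their median was -0.05, and it was 0.03 without CpG1826 mouse 189 and 0.02 without PBS mouse 26. Cxcr2, of neutrophils, rose by 1.64, Ccrl2, which binds chemerin, by 1.38 and Ccr7, of mature dendritic cells, by 0.75, while Cxcr3, of activated T and NK cells, fell by 0.70 on the log2 scale.

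**Figure D5:**
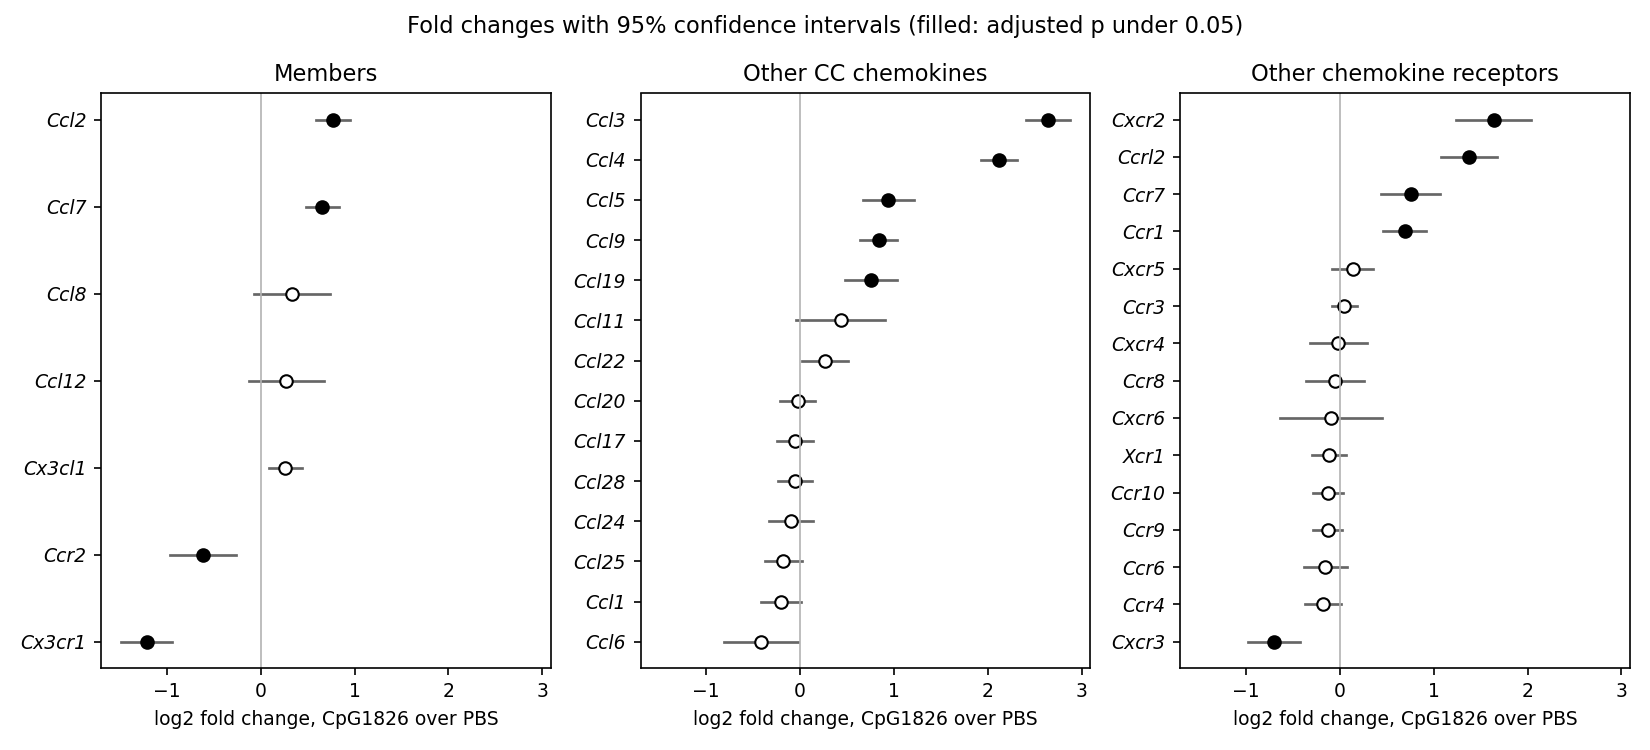
Log2 fold change with its 95% confidence interval (x axis, CpG1826 over PBS) of the 7 genes (left), 14 other CC chemokines (middle) and 15 other chemokine receptors (right). Filled points pass an adjusted p under 0.05; Cx3cr1 lies lowest of all genes drawn, at -1.21.

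Genes most like each member were sought by Pearson's r of the deviations from the group means over the 10 arrays, among 9968 genes above the median level (9969 for Cx3cl1, itself below it). With so many genes and 10 arrays, high values can arise by choice of the best alone, and they are given as a description. Ccl2 was most like Nfkbia (r = 0.930), the NF-κB inhibitor IκBα, which itself rose by 1.01 ± 0.07 on the log2 scale (SE), then Phka2 (0.913) and Foxo3 (0.884). Ccl7 was most like Jsrp1 (0.858), C2cd4a (0.858) and Ccdc61 (0.812). Cx3cl1 was most like Pramel12 (0.954), Gse1 (0.924) and Itpripl1 (0.911).

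For the receptors, the genes most like Ccr2 were Asf1a (0.933), Vav3 (0.923) and Sesn1 (0.919). Sesn1 was itself lower (-0.51, limma adjusted p = 0.0325), a call that was lost in 6 of the 10 fits, those without PBS mice 26, 29 and 592 and CpG1826 mice 50, 183 and 189 (limma adjusted p from 0.0107 to 0.0873 in all 10). The genes most like Cx3cr1 were Marcks (0.985), Crbn (0.984) and Ndufs7 (0.967), and these did not pass between the groups (0.10, -0.02 and -0.14). The arrays share their normalization, and each value compares deviations of the same 10 tumors.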

How the data were processed

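Total RNA of 10 tumors was labelled with biotin for whole-transcript arrays, per the labels' protocols. The authors deposited 1 log2 value per probe and array, from 2.03 to 14.7; base 2 was inferred from their range. R 2.7.1 and limma appear in the submitters' processing notes without a stated role. For background correction, summarization and normalization the method is not stated there. Array medians lay between 6.47 and 6.53, and arrays correlated pairwise at r = 0.980 to 0.994 over probes; the number of arrays limits the precision. The annotation pairs 21789 of 35512 probes with 1 symbol, 1621 with several and 12102 with none; a gene with several probes was represented by its brightest on average. Each of the 7 genes had 1 probe.

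All 19938 genes were fitted with lmFit and eBayes (limma 3.58.1, R 4.3.3, two-sided, default prior). Fold changes are CpG1826 over PBS. Each array was taken as 1 mouse by its number. Permutation tests used SciPy 1.17.1. In simulated data of this comparison with 19938 genes, the fit recovered 75 of 100 genes changed by 0.5 and 100 of 100 changed by 1 log2 unit, with 8 unchanged genes among 183 calls. Noise was drawn independently for each gene, and fewer genes were changed than the 930 called in the data. The rates in the real data may thus differ.

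The members and the 15 gene lists, of which 204 of 214 entries were matched, were chosen with earlier results of these data known. Named genes are the 7 members, up to 4 called genes of each list with the largest change (without a call, the 2 of highest level), any gene of the pathway list, and the 3 genes most like Ccl2, Ccl7, Ccr2, Cx3cl1 and Cx3cr1. Neighbouring genes, Fcgr1, Ccl19, Adgre1, Cd68, F13a1, Plac8 and Ly6g were named after their values were seen. Alternatives covered normalization, filters on level, the prior, array weights, probes, thresholds and each mouse left out. Promoters are RefSeq's (GRCm38.p6); the array's own build is not stated in the labels.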

Additional observations from a re-analysis of the deposited data

Results flagged for a closer look

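Of 64 sets of 5 values, for the genes, their differences and the marker lists in each group, 6 held a tumor far from the other 4 (its gap to the nearest, as a share of the set's range, above Dixon's 95% critical value, which chance gives for about 1 set in 20). Cx3cr1 minus Ccr2 was -0.22 in PBS mouse 29 against 0.16 to 0.23 in the other PBS tumors. The mean of the other chemokine receptors was 6.51 in CpG1826 mouse 183 against 6.35 to 6.37. In PBS mouse 661 the macrophage marker mean was 9.35 and the T cell marker mean 6.75, the 2 values given beside Ccl8. The fibroblast marker mean was 9.82 in PBS mouse 29 against 9.92 to 9.94, and 9.45 in CpG1826 mouse 50, the tumor with the lowest receptor values, against at least 9.88.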

How the results depend on the processing

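The directions of all 7 genes, of the 6 pairs and of the 4 receptor and list differences were kept under every alternative run, and calls changed for Ccr2, Ccl2 and Ccl7. Ccr2 (-0.61) lost its call with all probes tested on their own (limma adjusted p = 0.140), at an adjusted p under 0.01 (limma adjusted p = 0.0495) and in 9 of 10 fits without 1 mouse (-0.73 to -0.49). Against a minimum change of 1.5-fold (limma treat), Ccl2 (0.77), Ccl7 (0.66) and Ccr2 (-0.61) did not pass (limma adjusted p = 1 for each), and Cx3cr1 did. Cx3cl1 is below the median level, so it has no value with such genes left out. The counts of genes higher and genes lower were 710 and 220. With the treat minimum these were 80 and 2, and at an adjusted p under 0.01 they were 407 and 64. The count of genes lower was 364 after a further quantile normalization, 338 without genes below the median level, 101 over all probes, and 121 to 209 without 1 mouse. No paired analysis was possible because the groups share no mouse number. Detection calls were not used here, so Cx3cl1, just below the median level, and dimmer genes have no stated background.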
